A study of Rattus norvegicus with 8 samples.

Results

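The glutathione S-transferases described here are 10 genes of rat H9c2 cells: Gstp1 of the pi class, Gstm1 and Gstm2 of the mu class, Gsta4 of the alpha class, Gsto1 of the omega class, Gstt1 of the theta class, Gstz1 of the zeta class, Gstk1 of the kappa class, and the membrane enzymes Mgst1 and Mgst3. They were chosen by gene symbol, and all 10 were found, each once, among the 40994 genes of the deposited count table. The comparison was between 4 libraries of cells given OxPAPC, oxidized palmitoyl-arachidonoyl-phosphatidylcholine, at 100 µg/ml for 6 h and 4 libraries of cells given vehicle. H9c2 is a myoblast line of rat heart origin, and both groups were cells of passage 6 with no genetic change with 1 batch date. What the vehicle was and how long it was applied are not stated in the sources used here. Libraries are numbered by their titles: OxPAPC libraries are 2, 9, 16 and 23, and vehicle libraries are 1, 8, 15 and 22.

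Glutathione S-transferases join the tripeptide glutathione to electrophiles, which include the reactive aldehydes and lipid products that arise when membrane phospholipids are oxidized. The conjugates are pumped out of the cell and trimmed to mercapturic acids, while the glutathione itself is made from cysteine, glutamate and glycine. Several transferase genes are known targets of NRF2, the transcription factor that electrophiles release from KEAP1 and that binds antioxidant response elements.

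OxPAPC raised 2 of the 8 transferases that could be tested, near the background of 17.9% of all tested genes that rose. Gstp1, the main transferase of many tissues outside the liver, was 2.47-fold higher (95% interval 2.36 to 2.58), and Gstm1, a mu class enzyme, was 1.55-fold higher (1.34 to 1.80). None of the 8 fell, beside 16.4% of all tested genes, and Gstm2, Gsto1, Mgst3, Gstz1, Gstt1 and Mgst1 did not pass the test. Gsta4 had too few counts to be tested and Gstk1 had none in any library. The set's makeup moved with Gstp1, which held 81.4% of the summed transferase level in OxPAPC libraries and 65.2% in vehicle libraries.

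Total counts were 15.4 to 19.8 M per OxPAPC library and 17.1 to 21.7 M per vehicle library, and no library repeated another within sampling noise. The cells were checked against marker genes. Of the skeletal myoblast markers, Myod1, Myog and Cdh15 had 12888, 9777 and 27273 counts over all libraries, while Myf5 had 1 and Pax7 had 2. Of the 10 cardiomyocyte markers, Tnnt2 and Actc1 had 17280 and 4015 counts, and Nkx2-5 and Tnni3 had 94 and 33. Nppa, Myh7, Myl7, Myh6, Ryr2 and Nppb had 7, 6, 4, 3, 3 and 3. The list summed to 139 to 147 CPM (counts per M) in OxPAPC libraries and to 146 to 167 CPM in vehicle libraries. Of 3 tested, 1 fell, beside 16.4% of all tested genes. The 8 fibroblast markers were the most abundant list in summed level, at 87000 to 91900 CPM in OxPAPC libraries and 89900 to 94300 CPM in vehicle libraries. The collagen genes Col1a1, Col1a2 and Col3a1 had 5893935, 3891658 and 2852627 counts over all libraries, and Postn had 374913. Thy1, Lum and Dcn had 27221, 14906 and 11771 counts, and Pdgfra had 68. Of 7 tested, 2 fell, beside 16.4% of all tested genes. Of 5 endothelial markers Cdh5 and Kdr were at 0, and Vwf, Tek and Pecam1 had 75, 66 and 5 counts over all libraries. Of 6 macrophage markers Ptprc and Adgre1 were at 0, and Cd68, Csf1r, Itgam and Lyz2 had 122, 105, 9 and 4 counts. Of 5 hepatocyte markers Alb was at 0, and the other 4 had 1 to 9 counts each. The summed levels of these 3 lists overlapped between OxPAPC and vehicle libraries, at most 2.21 CPM in an OxPAPC library and 1.69 CPM in a vehicle library. The summed level of 5 smooth muscle markers was 6390 to 6700 CPM in OxPAPC libraries and 7940 to 8160 CPM in vehicle libraries. Of the 5, all tested, 4 fell, beside 16.4% of all tested genes. The 10 skeletal myoblast markers summed to 384 to 410 CPM in OxPAPC libraries and to 443 to 462 CPM in vehicle libraries. Of 7 tested, 2 rose and 2 fell, where 17.9% of all tested genes rose and 16.4% fell. The part of these shifts in the transferase values was not tested. In bulk RNA, fewer cells of a type and less RNA per cell cannot be told apart. Separate cultures are not named in the labels, and p-values therefore cover only the variation among these 8 samples, which may be technical.

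The start regions of Gstp1, Gstm1 and Gstm2 are shown because they belong to the most raised of the 10 genes and to a pair of mu class neighbours of which 1 rose. Each is the RefSeq window of the assembly GRCr8 from 250 bases before to 50 bases after the gene's start, on the minus strand and read in the direction of the gene. Capitals mark matches to the antioxidant response element core TGACNNNGC, the AP-1 site TGANTCA and the TATA box TATAAA, searched on both strands.
Gstp1, chr1:210769656-210769955: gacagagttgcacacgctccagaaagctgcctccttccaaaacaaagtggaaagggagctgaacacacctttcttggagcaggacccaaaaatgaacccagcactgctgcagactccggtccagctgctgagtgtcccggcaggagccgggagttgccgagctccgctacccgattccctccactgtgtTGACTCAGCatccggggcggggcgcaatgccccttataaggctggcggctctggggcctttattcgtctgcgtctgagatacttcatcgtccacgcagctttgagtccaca
Gstm1, chr2:198343334-198343633: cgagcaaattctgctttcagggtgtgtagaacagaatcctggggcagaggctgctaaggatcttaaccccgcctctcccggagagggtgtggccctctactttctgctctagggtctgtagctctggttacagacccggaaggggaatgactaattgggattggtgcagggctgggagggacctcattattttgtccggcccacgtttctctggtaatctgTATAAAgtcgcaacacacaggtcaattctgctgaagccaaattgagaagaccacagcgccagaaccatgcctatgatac
Gstm2, chr2:198316868-198317167: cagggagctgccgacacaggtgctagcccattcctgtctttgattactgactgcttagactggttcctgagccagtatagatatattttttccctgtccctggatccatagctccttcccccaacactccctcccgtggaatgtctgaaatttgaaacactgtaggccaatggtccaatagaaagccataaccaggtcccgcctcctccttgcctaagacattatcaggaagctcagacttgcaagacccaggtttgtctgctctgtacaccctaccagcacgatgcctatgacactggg
The capitals in Gstp1 are the antioxidant response element core at positions -61 to -53 from the start, and its first 7 bases are also an AP-1 site. The capitals in Gstm1 are a TATA box at -29 to -24, and the Gstm2 window held none of these motifs. Windows were given for 9 of the 10 genes, all but Gstt1. The antioxidant response element core occurred in 2 of the 9, Gstp1 and Gstz1, and in 12.1% of all 33469 windows. The AP-1 site occurred in 3 of the 9, Gstp1, Gsto1 and Mgst1, and in 7.33% of all windows. The GC box GGGCGG occurred in 7 of the 9, all but Gstm1 and Gstm2, and in 33.1% of all windows, and the TATA box in Gstm1 and in 14.2% of all windows. A match describes the letters in the window and says nothing of binding.

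Levels between genes were compared as FPKM, fragments per kb of gene and M counts, from the authors' table. Gstp1 stood first with 578.8 ± 7.92 FPKM in OxPAPC libraries and 239.1 ± 8.02 FPKM in vehicle libraries (SD, n = 4 each), which ranked it 87th and 230th among the 13206 tested genes. Gstm2 averaged 54.0 ± 1.40 FPKM with OxPAPC and 54.7 ± 1.95 FPKM with vehicle, and Gsto1 averaged 43.0 ± 1.04 and 40.5 ± 0.361 FPKM in OxPAPC and vehicle libraries. Mgst3 followed with 17.6 ± 2.29 FPKM in OxPAPC and 18.9 ± 1.93 FPKM in vehicle libraries, and Gstm1 with 10.7 ± 0.784 FPKM in OxPAPC and 6.99 ± 0.958 FPKM in vehicle libraries. Gstz1, Gstt1, Mgst1 and Gsta4 averaged 3.03, 1.79, 1.43 and 0.619 FPKM in OxPAPC libraries, against 3.76, 1.38, 0.852 and 0.345 FPKM in vehicle libraries. Gstk1 was listed at 0 in each library.

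This order, Gstp1, Gstm2, Gsto1, Mgst3, Gstm1, Gstz1, Gstt1, Mgst1, Gsta4 and Gstk1, was the same in both groups. Neighbours in the order had ranges over libraries that did not overlap, except Gstt1 and Mgst1 in both groups and Mgst1 and Gsta4 in OxPAPC libraries. The 10 genes summed to 711.0 ± 7.08 FPKM with OxPAPC (range 703.8 to 720.7) and to 366.5 ± 9.16 FPKM with vehicle (range 356.8 to 377.3). Without Gstp1 the sum was 132.2 ± 2.15 FPKM with OxPAPC (range 130.0 to 135.0) and 127.4 ± 2.88 FPKM with vehicle (range 123.5 to 130.3), and those ranges overlapped slightly, while the sums with Gstp1 lay far apart. Gstm2 held 7.60% of the sum in OxPAPC libraries and 14.9% in vehicle libraries, and Gsto1 held 6.05% and 11.1% in OxPAPC and vehicle libraries, without a change in either gene that passed the test.

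**Figure D1:**
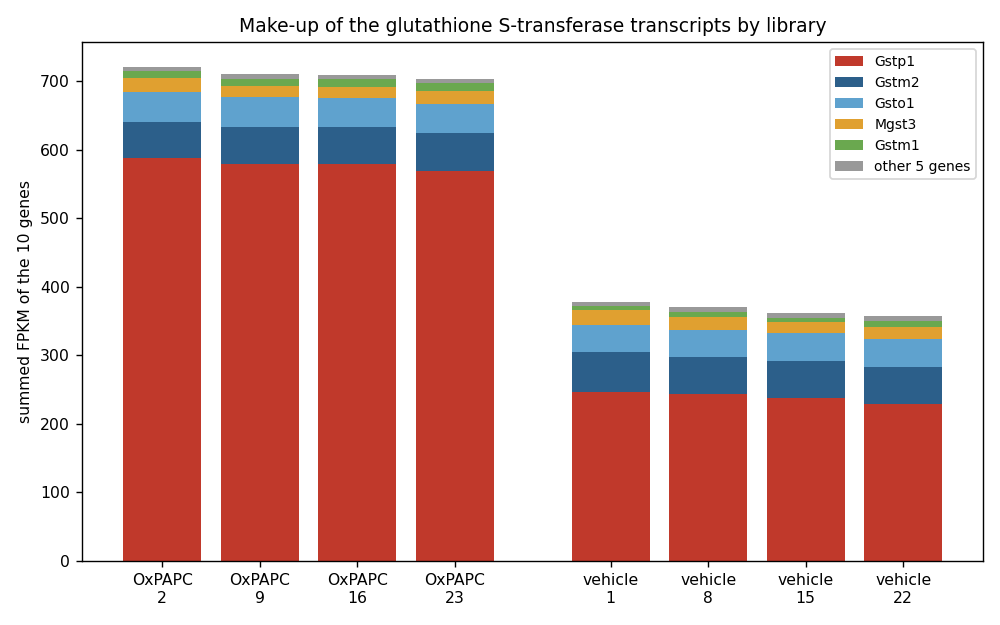
Summed FPKM of the 10 transferases in each library, stacked by gene, with the 4 OxPAPC libraries left of the 4 vehicle libraries. The Gstp1 layer makes up 80.8 to 81.7% of each OxPAPC bar and 64.0 to 65.8% of each vehicle bar, and the layers of the other genes together are 130.0 to 135.0 FPKM high in OxPAPC bars and 123.5 to 130.3 FPKM high in vehicle bars.

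Values per library are given below as CPM, counts per M of the TMM-scaled library, and fold changes are OxPAPC over vehicle with their SE. Genes were tested with edgeR's quasi-likelihood test, Benjamini-Hochberg adjusted over 13206 genes, and a gene rose or fell when its adjusted p was under 0.05. By that rule 34.3% of all tested genes changed, 17.9% rising and 16.4% falling, and the 2 rises among 8 tested transferases were near that background. The median log2 fold change of the 8 was 0.25, against 0.0022 over all tested genes, and their median absolute log2 fold change was 0.34, against 0.15. The genes were chosen with earlier results of these data known, so these medians are no independent evidence. Gstp1, Gstm1, Gsto1 and Gstt1 had all 4 OxPAPC libraries above all 4 vehicle libraries, as did 16.8% of all tested genes.

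Gstp1 conjugates a wide range of electrophiles and is known in rat liver as a marker of preneoplastic foci. It had 458, 449, 447 and 438 CPM in OxPAPC libraries 2, 9, 16 and 23, against 188, 185, 180.2 and 173 CPM in vehicle libraries 1, 8, 15 and 22. The groups lay far apart, and the spread within each was small, with a coefficient of variation of 1.82% in OxPAPC and 3.60% in vehicle libraries. The log2 fold change was 1.30 ± 0.03 (adjusted p = 3.56e-19, edgeR), which placed Gstp1 66th by rise and 14th by p among the tested genes. The gene lies on the minus strand of chromosome 1, at 201337762 to 201340230 in the deposited table. A pseudogene, LOC688229, whose description names the same protein, had 0 counts.

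By the likeness of its values over the 8 libraries, Pearson's r of log2 CPM, the genes closest to Gstp1 were Hspa8 (r = 0.9995), a constitutive heat shock chaperone, Txn1 (r = 0.9993), the cytosolic thioredoxin, and Anxa7 (r = 0.9992), an annexin. All 8 libraries share the same 2 groups, so each r mostly describes the difference between groups. Their log2 fold changes were 0.83 ± 0.02 for Hspa8, 0.59 ± 0.03 for Txn1 and 0.45 ± 0.04 for Anxa7, each smaller than that of Gstp1.

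Gstm1 and Gstm2 are mu class enzymes encoded 21071 bases apart on the minus strand of chromosome 2, Gstm1 at 195649845 to 195655402 and Gstm2 at 195624015 to 195628774. Gstm1 had 14.2, 12.8, 14.8 and 15.1 CPM in OxPAPC libraries 2, 9, 16 and 23, against 7.93, 9.50, 8.45 and 10.8 CPM in vehicle libraries 1, 8, 15 and 22. Each OxPAPC library lay above the highest vehicle library. The log2 fold change of Gstm1 was 0.63 ± 0.10 (adjusted p = 3.14e-05, edgeR). Gstm2 had 54.5, 56.2, 55.3 and 57.4 CPM in OxPAPC libraries 2, 9, 16 and 23, against 58.5, 54.8, 53.7 and 54.9 CPM in vehicle libraries 1, 8, 15 and 22. These groups overlapped, with the single highest value in a vehicle library. The log2 fold change of Gstm2 was 0.01 ± 0.05 (95% interval -0.08 to 0.11, adjusted p = 0.879, edgeR), or 0.944-fold to 1.08-fold, an interval that does not reach the 1.34-fold lower bound of Gstm1.

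The difference between the neighbours was tested on their ratio within each library. Gstm1 had 22.8 to 26.8% of the CPM of Gstm2 in OxPAPC libraries and 13.5 to 19.6% in vehicle libraries. The log2 ratio was -1.97 ± 0.11 with OxPAPC and -2.61 ± 0.22 with vehicle (SD, n = 4 each), a difference of 0.63. An exact two-sided permutation test over 70 splits gave p = 0.0286, the smallest this design allows, and 0.0857 after adjustment over 3 ratios compared. The ratio of the membrane enzymes, Mgst1 over Mgst3, differed by 0.77 on the log2 scale (exact permutation p = 0.171, adjusted 0.257), and Gsta4 over Gstp1 by -0.47 (exact permutation p = 0.40, adjusted 0.40). None of the 3 had an adjusted p under 0.05. A ratio that alone reaches the smallest p cannot go below 0.0857 after adjustment over 3. The adjusted test therefore cannot decide whether Gstm1 over Gstm2 differed. Mu class transcripts are alike in sequence, and how the authors' counting placed reads that fit more than 1 of them is not stated.

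Around this pair the mu class cluster of 8 genes, spanning 154 kb, held 3 other genes that could be tested, and none of them passed. Gstm4, next to Gstm1, averaged 8.34 ± 0.916 CPM in OxPAPC and 7.27 ± 0.0902 CPM in vehicle libraries (log2 fold change 0.20, adjusted p = 0.169, edgeR), with all OxPAPC libraries above all vehicle libraries. Gstm5 and Gstm7 had log2 fold changes of 0.01 (adjusted p = 0.961, edgeR) and -0.10 (adjusted p = 0.857). Gstm3l had 14 counts over the OxPAPC libraries and 6 over the vehicle libraries, and Gstm6 and Gstm6l had 0.

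**Figure D2:**
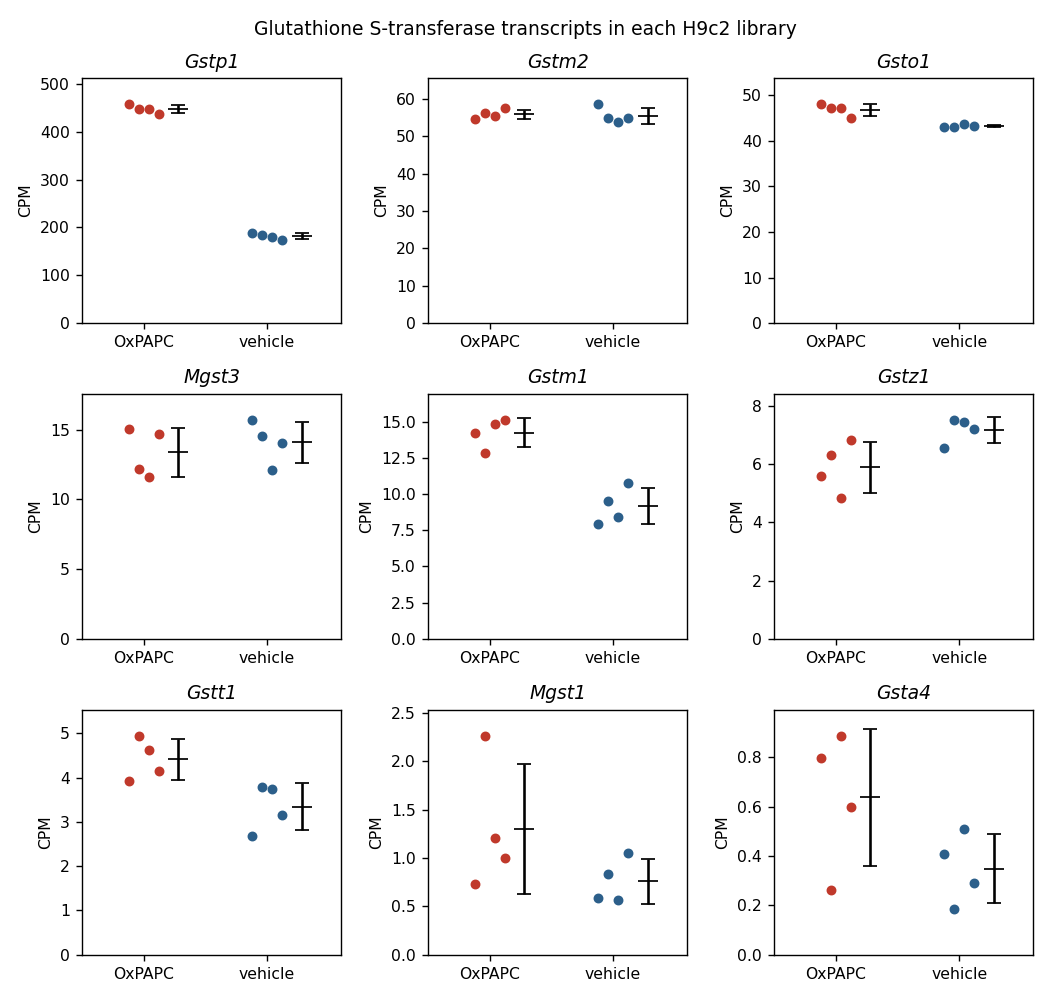
CPM of 9 transferases in each library, 4 OxPAPC libraries left of 4 vehicle libraries in each panel, with points for libraries and bars for mean ± SD; each axis starts at 0 and has its own scale, and Gstk1 is left out since it had no counts. Groups lie apart for Gstp1, Gstm1, Gsto1 and Gstt1 and overlap for the other 5 genes.

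Gsto1, an omega class enzyme that reduces dehydroascorbate and removes glutathione from proteins, had 48.1, 47.2, 47.2 and 45.0 CPM in OxPAPC libraries 2, 9, 16 and 23. Its values in vehicle libraries 1, 8, 15 and 22 were 43.2, 43.1, 43.7 and 43.3 CPM. The OxPAPC libraries all lay above the vehicle libraries, which differed little among themselves. The log2 fold change was 0.11 ± 0.05, a fold of 1.01 to 1.16 by its 95% interval (adjusted p = 0.0646, edgeR). It passed in 3 of 19 alternative settings, without OxPAPC library 23 (adjusted p = 0.0405) and with limma on filtered log2(FPKM + 1) and log2(FPKM + 0.1) (adjusted p = 0.0377 and 0.0386). Gsto1 lies on the plus strand of chromosome 1, at 246721089 to 246731228, and Gsto2 begins 86 bases beyond its end on the same strand. Gsto2, named after its values were seen, averaged 4.17 ± 0.411 CPM with OxPAPC and 2.86 ± 0.309 CPM with vehicle, and rose by 0.54 ± 0.16 on the log2 scale (adjusted p = 0.0104, edgeR). This call held in 18 of 19 alternative settings, and was lost with limma on log2(FPKM + 1) without the filter (adjusted p = 0.0587).

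Gstt1, a theta class enzyme that acts on small halogenated molecules, had 3.93, 4.94, 4.63 and 4.15 CPM in OxPAPC libraries 2, 9, 16 and 23, against 2.68, 3.80, 3.74 and 3.15 CPM in vehicle libraries 1, 8, 15 and 22. The lowest OxPAPC library stood just above the highest vehicle library. The log2 fold change was 0.39 ± 0.16 (95% interval 0.06 to 0.73, adjusted p = 0.0594, edgeR), on 46 to 94 counts per library. On chromosome 20, where Gstt1 occupies 12856613 to 12873586 of the plus strand, the theta cluster of 4 genes spans 63 kb. Its member Gstt2, also named after its values were seen, averaged 7.84 ± 1.35 CPM with OxPAPC and 5.77 ± 0.408 CPM with vehicle. Gstt2 rose by 0.45 ± 0.13 on the log2 scale (adjusted p = 0.00849, edgeR), and without OxPAPC library 23 the value was 0.34 (adjusted p = 0.0523). Gstt2 passed in 17 of 19 alternative settings, and was also lost with limma on log2(FPKM + 1) without the filter (adjusted p = 0.0654). Gstt4 had 2 counts over the OxPAPC libraries and 0 over the vehicle libraries, and Gstt3 had 0 and 5 counts in OxPAPC and vehicle libraries.

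Gstz1, the zeta class enzyme also known as maleylacetoacetate isomerase of tyrosine breakdown, had 5.59, 6.31, 4.82 and 6.80 CPM in OxPAPC libraries 2, 9, 16 and 23. Its values in vehicle libraries 1, 8, 15 and 22 were 6.53, 7.50, 7.43 and 7.19 CPM. OxPAPC libraries 2, 9 and 16 lay below the lowest vehicle library, and OxPAPC library 23 did not. The log2 fold change was -0.28 ± 0.12 (95% interval -0.53 to -0.02, adjusted p = 0.0929, edgeR), and without OxPAPC library 23 it was -0.36 (adjusted p = 0.042). With other single libraries left out it reached -0.20 at the weakest. Gstz1 passed in 3 of 19 alternative settings of edgeR, DESeq2 and limma, with adjusted p of 0.0418 to 0.269. Gstz1 lies on the plus strand of chromosome 6, at 106794594 to 106805284, and shares 256 bases with Pomt2 on the opposite strand. Whether the counting used strand is not known, so reads in that stretch may belong to either gene. Pomt2 averaged 16.8 ± 0.995 CPM with OxPAPC and 17.1 ± 1.72 CPM with vehicle (log2 fold change -0.03 ± 0.08, adjusted p = 0.844, edgeR).

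The membrane enzymes differ in role, Mgst1 acting as transferase and peroxidase in the endoplasmic reticulum and the outer mitochondrial membrane, and Mgst3 making leukotriene C4 and reducing lipid hydroperoxides. Mgst3 had 15.1, 12.2, 11.6 and 14.7 CPM in OxPAPC libraries 2, 9, 16 and 23, against 15.7, 14.5, 12.1 and 14.0 CPM in vehicle libraries 1, 8, 15 and 22. The groups overlapped over most of their range, and the log2 fold change was -0.08 ± 0.10 (95% interval -0.28 to 0.13, adjusted p = 0.606, edgeR). Mgst1 had 0.733, 2.26, 1.20 and 1.00 CPM in OxPAPC libraries 2, 9, 16 and 23, against 0.583, 0.834, 0.567 and 1.05 CPM in vehicle libraries 1, 8, 15 and 22. OxPAPC library 9 stood highest, OxPAPC library 16 also lay above the highest vehicle library, and OxPAPC libraries 2 and 23 lay within the vehicle range. With 10 to 43 counts per library, the log2 fold change of Mgst1 was 0.79 ± 0.35 (95% interval 0.06 to 1.52, adjusted p = 0.0888, edgeR). It was 0.37 without OxPAPC library 9 (adjusted p = 0.486) and 0.97 without OxPAPC library 2 (adjusted p = 0.0383). Mgst3 lies on the minus strand of chromosome 13, at 79526541 to 79547479, and Mgst1 on the plus strand of chromosome 4, at 171029666 to 171044893. RGD1561381 on chromosome 14, whose description names the same protein as Mgst3, had 24 counts over all libraries.

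Gsta4, an alpha class enzyme with high activity towards 4-hydroxynonenal, had 12, 5, 14 and 12 counts in OxPAPC libraries 2, 9, 16 and 23, against 7, 4, 9 and 5 counts in vehicle libraries 1, 8, 15 and 22. The groups overlapped, and as CPM they averaged 0.637 ± 0.277 with OxPAPC and 0.349 ± 0.141 with vehicle (SD, n = 4 each, exact two-sided permutation p = 0.143). It was below the count filter, and a fit without the filter gave a log2 fold change of 0.84 ± 0.50 (adjusted p = 0.279, edgeR). Gsta4 lies on the plus strand of chromosome 8, at 79066967 to 79084193, in a cluster of alpha class genes that spans 130 kb. There Gsta5 had 7, 2, 3 and 3 counts in OxPAPC libraries and 0, 1, 0 and 0 counts in vehicle libraries, and Gsta2 had 6 counts over the OxPAPC libraries and 0 over the vehicle libraries. Both were below the filter, and in the fit without it Gsta5 passed (adjusted p = 0.0257, edgeR) and Gsta2 did not (adjusted p = 0.0881). The Gsta5 call rests on 15 counts over the OxPAPC libraries and 1 over the vehicle libraries. How the authors' counting placed reads that fit more than 1 alpha class gene is not stated. Gstk1, the kappa class enzyme of mitochondria and peroxisomes on the plus strand of chromosome 4 at 71118979 to 71123298, had 0 counts in each library. Over a group, 0 counts allow up to 0.0430 CPM with OxPAPC and 0.0408 CPM with vehicle (3 counts over the group). These bounds cover counting error only, and not reads lost or placed elsewhere in mapping or counting. LOC102549076, a pseudogene whose description names the same protein as Gstk1, had 9 counts over the OxPAPC libraries and 15 over the vehicle libraries.

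Of 32 related genes, other transferases and proteins with a transferase fold, 14 could be tested, and of these 6 rose, 1 fell and 7 did not pass (median log2 fold change 0.11, against 0.0022 over all tested genes). Over all tested genes 17.9% rose and 16.4% fell. Gsta1, an alpha class enzyme of the chromosome 9 cluster, had the largest change among these and the 8 tested transferases. It averaged 41.4 ± 0.639 CPM with OxPAPC and 7.40 ± 0.674 CPM with vehicle (log2 fold change 2.48 ± 0.07, adjusted p = 1.31e-17, edgeR). Mgst2, a membrane enzyme that can make leukotriene C4, averaged 41.2 ± 2.63 CPM with OxPAPC and 31.2 ± 1.28 CPM with vehicle, and rose by 0.40 ± 0.06 on the log2 scale (adjusted p = 9.59e-06, edgeR). Gstcd, a protein named for a transferase domain, fell by 0.34 on the log2 scale, with 12.8 ± 1.11 CPM in OxPAPC and 16.1 ± 0.680 CPM in vehicle libraries (adjusted p = 0.00331, edgeR). The Gstcd call held in 18 of 19 alternative settings, and was lost with limma on log2(FPKM + 1) without the filter (adjusted p = 0.0645). Clic4, a chloride intracellular channel protein, and Eef1g, an elongation factor subunit, both carry the fold and rose by 0.13 ± 0.03 and 0.10 ± 0.03. Their adjusted p stayed under 0.05 in 18 of 19 alternative settings for Clic4 and in 15 of 19 for Eef1g. Of the 18 genes not tested, Gsta3, Gstm6, Gstm6l and RGD1307603 had 0 counts in all libraries.

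**Figure D3:**
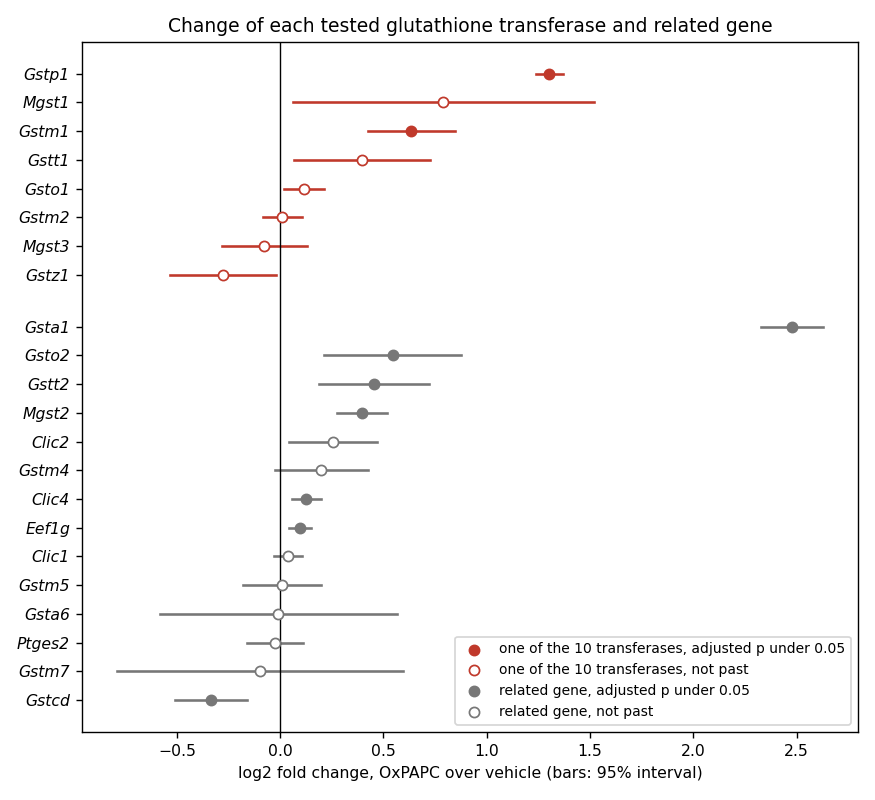
Log2 fold change (OxPAPC over vehicle) with its 95% interval for the 8 tested transferases, above, and for the tested related genes, below; filled points passed an adjusted p of 0.05 with edgeR and open points did not. Gstp1 at 1.30 and Gstm1 at 0.63 are the filled points of the upper set, and Gsta1 at 2.48 lies farthest right in the lower set.

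The steps before and after conjugation were read from lists of genes. All 8 genes that supply glutathione and its reducing power rose (median log2 fold change 1.16), 5 of them at least 2-fold, where 17.9% of all tested genes rose. This list was drawn up with its rise already known, so its count is no independent evidence. Gclc, the catalytic subunit of glutamate-cysteine ligase that sets the rate of glutathione synthesis, averaged 159.5 ± 5.91 CPM with OxPAPC and 54.2 ± 0.468 CPM with vehicle (log2 fold change 1.56 ± 0.04, adjusted p = 4.51e-19, edgeR). Gsr, which reduces glutathione disulfide, averaged 112.5 ± 2.99 CPM with OxPAPC and 40.3 ± 2.11 CPM with vehicle (1.48 ± 0.04, adjusted p = 2.07e-17, edgeR). Pgd, an enzyme that forms NADPH, rose by 1.02 ± 0.03 on the log2 scale, and Slc3a2, the heavy chain of the cystine carrier, by 0.99 ± 0.03.

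Of 11 genes for export of conjugates and for glutathione carriers of mitochondria, 8 were tested, 3 rose, 1 fell and 4 did not pass (median log2 fold change 0.11), beside 17.9% of all tested genes that rose and 16.4% that fell. Abcc1, the multidrug resistance protein that pumps glutathione conjugates out of the cell, averaged 165.9 ± 8.66 CPM with OxPAPC and 96.6 ± 4.58 CPM with vehicle (0.78 ± 0.04, adjusted p = 1.14e-12, edgeR). Abcc4, a related pump, averaged 41.6 ± 1.28 CPM with OxPAPC and 21.8 ± 1.43 CPM with vehicle (0.93 ± 0.06, adjusted p = 2.14e-11, edgeR). Abcc5, another pump of this family, rose by 0.73 ± 0.14 (adjusted p = 0.0078, edgeR). Slc25a40, a mitochondrial glutathione carrier, fell by 0.38 on the log2 scale (adjusted p = 0.0221, edgeR). Its adjusted p was 0.0527, 0.0548 and 0.0707 without OxPAPC libraries 2, 9 and 16, and 0.0764 and 0.0661 without vehicle libraries 1 and 8.

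Of 22 genes that process conjugates to mercapturates or break down glutathione, 15 were tested, 3 rose, 1 fell and 11 did not pass (median log2 fold change -0.07), where 17.9% of all tested genes rose and 16.4% fell. Ggt1, the gamma-glutamyltransferase that cleaves glutathione and its conjugates outside the cell, averaged 12.9 ± 0.633 CPM with OxPAPC and 7.71 ± 0.571 CPM with vehicle (0.74 ± 0.10, adjusted p = 2.04e-06, edgeR). Chac1, which degrades glutathione in the cytosol, rose by 0.27 ± 0.06 (adjusted p = 0.001, edgeR). Lap3, a leucine aminopeptidase, rose by 0.12 ± 0.04 (adjusted p = 0.0182, edgeR), a call lost in 7 of 19 alternative settings. These were upper-quartile factors (adjusted p = 0.0996), no filter (0.0609), limma on log2(FPKM + 1) and log2(FPKM + 0.1) (0.0573 each), limma without the filter (0.104), and the fits without OxPAPC library 16 (0.0756) or vehicle library 15 (0.0514). Oplah, the 5-oxoprolinase of the gamma-glutamyl cycle, fell by 0.22 on the log2 scale (adjusted p = 0.00534, edgeR). The Oplah call held in 18 of 19 alternative settings, and was lost with limma on log2(FPKM + 1) without the filter (adjusted p = 0.0597).

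**Figure D4:**
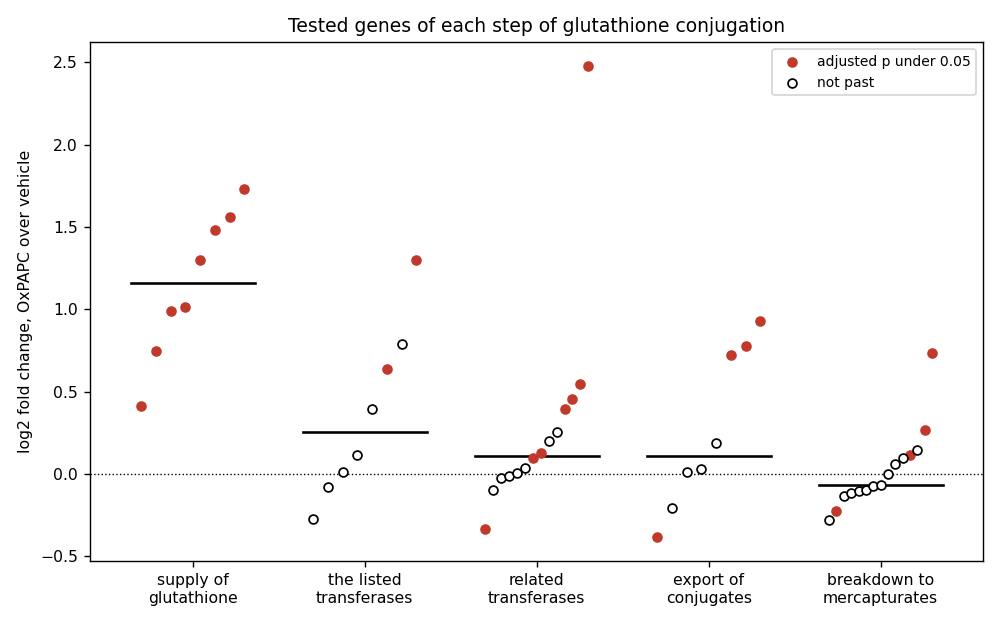
Log2 fold change (OxPAPC over vehicle) of each tested gene in 5 lists, with a point per gene (filled where the adjusted p was under 0.05) and a line at the list's median. From left to right the lists are glutathione supply, the listed transferases, related genes, conjugate export and mercapturate processing. The related genes, labelled related transferases, are other transferases and proteins with a transferase fold. The supply genes have a median of 1.16 and all lie above 0, while the medians of the other lists lie between -0.07 and 0.25.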

How the data were processed

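The authors deposited raw gene counts and FPKM values for 8 libraries, in 1 table each. The tools named, with no role or order, are featureCounts 1.5.0-p3, HISAT2 2.0.5 and StringTie 1.3.3b, per the submitters' processing notes. No source used here names the authors' genome build, and coordinates of genes are those of the deposited table. Its chromosome numbers were read through gene identifiers in a RefSeq gene table of GRCr8, which held 91.9% of the 40994 genes. Per the labels' protocols the libraries were directional and non-directional, so the use of strand in counting is unknown. Each file has 1 emptied line.

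The deposited counts went unchanged into edgeR 4.0.16 (R 4.3.3). Its filterByExpr, asking for 10 counts per median-sized library in 4 or more libraries and 15 counts over all, kept 13206 genes. Scaling was by TMM, and the test was the robust quasi-likelihood F test. The SE of a log2 fold change is its size over the root of F. The script was tested on simulated data. Libraries held 15.4 to 21.7 M counts. Molecular identifiers are not recorded, so floors cover counting error only. Alternatives used DESeq2 1.42.0 and limma 3.58.1, the latter also on log2 of FPKM plus 1 or 0.1. Promoter windows came from RefSeq, 250 bases before to 50 after the start.

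The 10 genes and the further lists were chosen with earlier results of these data known. Every one of the 10 is named. From each further list at most the 5 changed genes of smallest adjusted p, transferases below the filter and overlapping genes are named. Cluster neighbours outside that rule (Gstm4, Gstm5, Gstm7, Gsto2 and Gstt2) and copies of the same description were added after their values were seen. Of the 35 symbols of related genes, Gstm7l and Gstp2 matched no gene and 1 named a gene already listed.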

Additional observations from a re-analysis of the deposited data

Results flagged for a closer look

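Gsr had 108 CPM in OxPAPC library 9, against 114 CPM in each of OxPAPC libraries 2, 16 and 23, a gap of 0.917 of the group's range. Ggt1 had 6.86 CPM in vehicle library 15, with the other vehicle libraries at 7.92 to 8.10 CPM, a gap of 0.852 of the range. Both gaps exceed Dixon's 95% critical value for 4 samples. They are 2 of 54 groups of 4 libraries examined, and chance flags about 1 in 20.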

How the results depend on the processing

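Gstp1 and Gstm1 rose in each of 19 alternatives, with log2 fold changes of 1.26 to 1.32 and 0.55 to 0.72, and 2 to 3 of the transferases rose. The count that fell was 1, Gstz1, with limma on log2(FPKM + 1) (-0.25, adjusted p = 0.0418) and on log2(FPKM + 0.1) (-0.31, adjusted p = 0.0426), and 0 to 1 with single libraries left out. Gstm2, near 0 throughout, changed sign with upper-quartile factors (-0.0263), library totals (-0.0008), no filter (-0.0043), log2(FPKM + 1) (-0.0163, with or without the filter) and log2(FPKM + 0.1) (-0.0165), and lay between -0.0061 and 0.0373 with single libraries left out. The cause was not tested. The groups share no replicate numbers. Deviations from the group mean correlated at -0.00108 to 0.211 (Pearson's r) between libraries of neighbouring title numbers. Other pairs of libraries were not compared, so these values cannot decide whether the samples were paired. A replicate block of neighbouring title numbers gave 4664 changed genes and 3 raised transferases, the third being Gstt1 (0.40, adjusted p = 0.0462, edgeR). Over all genes, 1829 rises and 2723 falls were called under upper-quartile scaling, against 2369 and 2164 under TMM. Counts per library were lowest for Gsta4 (4 to 14) and Mgst1 (10 to 43) among the transferases with counts.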
